A study of Mus musculus with 12 samples.

Results

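The expression array used here carries 60-base probes for genomic intervals that have no gene name. Each is named by its chromosome, first and last base and strand, as in chr10:96098058-96098623_F, where F is the forward and R the reverse strand. They are described here as lincRNA interval probes, for long intergenic non-coding RNA. Of 4449 such probes, 4444 had a usable spot on every array, and the 1683 members are those that gave a signal well above background, by the scanner software's own mark, on all 3 arrays of at least 1 of 4 groups. The same rule over all 56556 usable non-control probes kept 29869. Members were therefore chosen by detection, and detection is given below as a description with no test.

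Total RNA of mouse hearts was hybridised, 1 sample to 1 single-colour (Cy3) array, in 4 groups of 3. WT was wild-type C57/BL6 heart, and WT+MI was C57/BL6 heart after myocardial infarction. TG was heart of mice that carry a transgene of CCRR, a long non-coding RNA, and TG+MI was CCRR transgenic heart after infarction. The transgenic samples have no strain label, so that strain and transgene cannot be told apart. The sources used here do not give the transgene's promoter, the age of the mice, how long after infarction hearts were taken, or whether each array is a different animal. WT+MI 2 and WT+MI 3 carry another title prefix than WT+MI 1 and were placed by their subgroup label. No probe in the files is named CCRR, so the level of the transgene was not checked. Fewer cells of a type and less RNA per cell cannot be told apart in whole-heart RNA.

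Long intergenic non-coding RNAs are transcribed by RNA polymerase II from stretches between protein-coding genes, are often spliced and polyadenylated, and are usually less abundant and more restricted to a tissue than messenger RNAs. Some act on chromatin or on genes near their own site of transcription, some hold nuclear bodies together, and many have no known function. An interval beside a gene can also hold an unannotated extension of that gene, since a probe reads 60 bases and not a whole transcript.

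The members lay on 20 chromosomes, from 127 on chromosome 1 to 38 on chromosome 19, with coordinates in the mouse build mm9 per the file headers. They came from 1406 of the 3228 intervals on the array, and 811 read the forward and 872 the reverse strand. The intervals were 104 to 533972 bases long, with a median of 11712. Intervals overlap and repeat: 243 held 2 or more members, 180 held members on both strands, and joining those that overlap left 1098 loci, of which 379 had several members and the largest had 7. Members of one locus share their source and are not replicates. The probe position given in the files lay inside the named interval and on the named strand for 4354 of the 4444 probes, and the other 90 had no coordinate. The sequences themselves could be checked against promoters in RefSeq (GRCm38.p6, 250 bases before to 50 after each gene's start): 54 of 55 exact matches read along the named strand.

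The probes on which the results below turn are printed first, 5′ to 3′ as in the deposited files. The first set lies downstream of Btg1 on chromosome 10. The forward probes read the strand of Btg1, and the reverse probe reads the other strand of the interval that holds the Btg1 probe.
chr10:96098058-96098623_F: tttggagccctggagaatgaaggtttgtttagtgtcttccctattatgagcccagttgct
chr10:96103732-96103867_F: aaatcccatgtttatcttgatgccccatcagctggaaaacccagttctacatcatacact
chr10:96082444-96096696_R: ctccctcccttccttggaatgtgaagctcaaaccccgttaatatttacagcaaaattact
The second set holds members near or within long non-coding RNA genes (Morrbid for both chromosome 2 probes, Neat1, Pvt1).
chr2:128211990-128215223_R: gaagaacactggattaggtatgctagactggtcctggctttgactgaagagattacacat
chr2:128217275-128217972_R: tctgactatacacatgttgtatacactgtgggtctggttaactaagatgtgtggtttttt
chr19:5834117-5835940_R: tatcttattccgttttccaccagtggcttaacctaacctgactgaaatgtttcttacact
chr15:61984389-62102500_F: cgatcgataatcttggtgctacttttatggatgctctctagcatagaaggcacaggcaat
Next comes a pair whose 60-base probes lie end to end on chromosome 9, the second starting on the base after the first ends, so that they read 1 stretch of RNA although the array gives them separate interval names.
chr9:78104935-78116974_F: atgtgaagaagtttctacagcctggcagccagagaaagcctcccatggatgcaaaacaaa
chr9:78107225-78118850_F: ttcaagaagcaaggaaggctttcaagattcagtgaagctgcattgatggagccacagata
Members that fell and that are described in detail below, and 1 that was detected after infarction but not before it, are printed with any AATAAA or ATTAAA in capitals, the signals that precede a polyadenylation site.
chr10:62267317-62269871_R: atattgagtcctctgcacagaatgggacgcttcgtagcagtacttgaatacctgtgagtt
chr10:69679644-69682458_F: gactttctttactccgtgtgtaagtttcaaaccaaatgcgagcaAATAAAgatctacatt
chr14:78223544-78224961_R: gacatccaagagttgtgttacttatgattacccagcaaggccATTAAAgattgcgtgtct
chr3:127037711-127111912_R: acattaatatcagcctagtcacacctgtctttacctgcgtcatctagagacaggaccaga
chr13:24615451-24615973_F: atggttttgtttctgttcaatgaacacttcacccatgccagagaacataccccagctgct
chr1:134867906-134885481_R: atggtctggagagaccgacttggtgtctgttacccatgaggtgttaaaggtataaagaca
The last set holds 3 of 4 intervals whose forward and reverse members were called in opposite directions while reading some of the same bases on opposite strands. Capitals mark the bases that the other probe of the pair reads on its strand.
chr12:77544397-77564122_F: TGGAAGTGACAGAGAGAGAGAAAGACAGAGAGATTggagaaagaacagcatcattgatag
chr12:77544397-77564122_R: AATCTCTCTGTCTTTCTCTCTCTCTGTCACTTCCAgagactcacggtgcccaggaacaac
chr5:35975265-35982561_F: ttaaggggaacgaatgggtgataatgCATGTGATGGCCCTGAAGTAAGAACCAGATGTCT
chr5:35975265-35982561_R: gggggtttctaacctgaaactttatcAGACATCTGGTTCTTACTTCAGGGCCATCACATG
chr11:19778600-19815950_F: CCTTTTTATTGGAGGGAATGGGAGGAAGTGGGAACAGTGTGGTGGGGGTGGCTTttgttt
chr11:19778600-19815950_R: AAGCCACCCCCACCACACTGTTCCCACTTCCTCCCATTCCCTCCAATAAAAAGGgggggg

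AATAAA was found in 85 of the 1683 members as read (5.05%), in 3.37% of the interval probes that were not chosen and in 10.3% of all other probes. Its reverse complement was found in 2.61%, 2.86% and 3.94% of the same 3 sets. ATTAAA was found in 2.50% of the members, 2.61% of the interval probes not chosen and 3.97% of all other probes. Its reverse complement was found in 1.60%, 2.35% and 2.73% of them. A probe may hold both motifs, and a match is a description of the 60 bases and not a mapped site. Median GC content was 45% in members and in interval probes not chosen. Only 21 members shared 30 or more bases with a probe of a named gene, on either strand. Transcripts and the genome were not searched.

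Interval probes were detected less widely than the rest of the array: 37.9% of the 4444 passed the rule, against 54.1% of the 52112 other non-control probes. Of the members, 1118 were well above background on all 12 arrays. On all 3 arrays of a group, 1431 were above background in WT, 1241 in WT+MI, 1244 in TG and 1642 in TG+MI. A group of 213 members passed through 1 group only, and 183 of these passed through TG+MI, 14 through WT, 12 through WT+MI and 4 through TG. The 3 TG+MI arrays each had 40.8% to 42.1% of interval probes above background, against 29.5% to 39.1% on the other 9 arrays, and they also had the highest share of all probes above it, 54.6% to 55.2% against 47.0% to 53.7%. The part of that array-wide difference in the detection of the members was not tested. Members just inside the rule, above background in exactly 1 group, had mean log2 signals from -4.52 to -1.83 in that group with a median of -3.83. The 197 probes just outside it, above background on 2 of 3 arrays of their best group, ran from -4.90 to -2.46 with a median of -4.17. Here and below, a level is the log2 of the processed signal minus the array's own 75th percentile over non-control probes, so that 0 is that percentile, and a difference is between group means of that scale with its standard error (SE) from limma, at 3 arrays a group.

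The arrays were alike in signal and carried the markers of their tissue. The 75th percentile of the processed signal was 198 to 374 and no spot was saturated. All 6 cardiomyocyte markers were above background on every array, with a summed log2 level of 9.89 to 10.8. The sum was 10.35 to 10.75 in WT and 9.945 to 10.25 in TG, with no overlap. In WT+MI it was 9.89 to 10.39 and in TG+MI 9.94 to 10.37. Slide 1 held the WT and WT+MI arrays and TG 1 and 2, and slide 2 held TG 3 and the TG+MI arrays, so TG+MI shared a slide with a single array of another group and none with WT+MI. Other marker lists also moved with the groups, and the part of all these lists in the results was not tested. The 4 neutrophil markers summed to 7.72 to 8.40 in WT+MI against 6.60 to 6.76 in WT, 6.33 to 6.43 in TG and 6.65 to 6.79 in TG+MI, and 3 of the 4 were above background on all WT arrays. The 5 macrophage markers summed to 6.54 to 7.32 in WT+MI, 5.94 to 6.48 in WT, 6.42 to 6.59 in TG and 5.31 to 6.45 in TG+MI. The 4 fibroblast markers were at 6.33 to 6.77 in WT+MI, 7.10 to 7.29 in WT, 7.40 to 7.67 in TG and 6.75 to 7.13 in TG+MI. The 4 endothelial markers were at 5.02 to 5.10 in WT, 4.36 to 4.57 in WT+MI, 4.34 to 4.68 in TG and 4.33 to 4.70 in TG+MI, so that WT lay above the other groups. The 4 erythroid markers were at 8.87 to 9.59 in WT, 8.38 to 8.69 in WT+MI, 7.68 to 8.52 in TG and 8.06 to 8.82 in TG+MI, all above background, with no overlap of WT with WT+MI, TG or TG+MI. The 4 atrial markers were at 5.24 to 5.28 in WT, 7.35 to 8.86 in WT+MI, 8.35 to 10.02 in TG and 5.71 to 7.77 in TG+MI. The 4 adipocyte markers reached 2.13 to 6.41 in TG and at most 1.57 elsewhere, and none of them was above background on all TG+MI arrays.

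Infarction in wild-type hearts changed the interval probes in large numbers and more often downward. Among the 1183 members above background on all 6 WT and WT+MI arrays, 528 passed the test (44.6%), 158 higher and 370 lower. The background among all 25148 probes measured on those arrays was 46.8%, of which 19.1% were higher and 27.8% lower. The members' share of calls was thus near the background, while their shares by direction were 13.4% higher and 31.3% lower. Their median difference was -0.21, against -0.10 over all probes so measured. Counting every member, 692 of 1683 passed (41.1%), 203 higher and 489 lower, against 46.3% over the 29869 probes tested (18.8% higher and 27.5% lower), but that count includes members that entered through 1 of these groups. Differences of at least 1 log2 unit were found in 93 members that rose (5.53%) and 135 that fell (8.02%), against 7.71% and 8.11% of all probes tested. The balance depended on the background correction: with normexp, 136 members were higher and 262 lower (8.08% and 15.6%), against 15.6% and 20.5% of the other probes, so that both shares were below those of the other probes.

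The smaller share of rises was seen at every signal level. Below -3, 8.86% of the members rose against 16.1% of the other probes. Between -3 and -2 it was 11.4% against 18.6%, between -2 and -1 14.5% against 20.7%, and at -1 and above 15.6% against 20%. The larger share of falls was seen only from -3 upward, where 33.5%, 34.1% and 36.5% of the members fell in the 3 classes, against 24.6%, 26.6% and 30.6% of the other probes. Below -3 the shares that fell were 19.2% and 20.9%. These shares cover every member and every other probe tested, including those that entered through 1 of these groups. They are descriptions with no test.

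**Figure D1:**
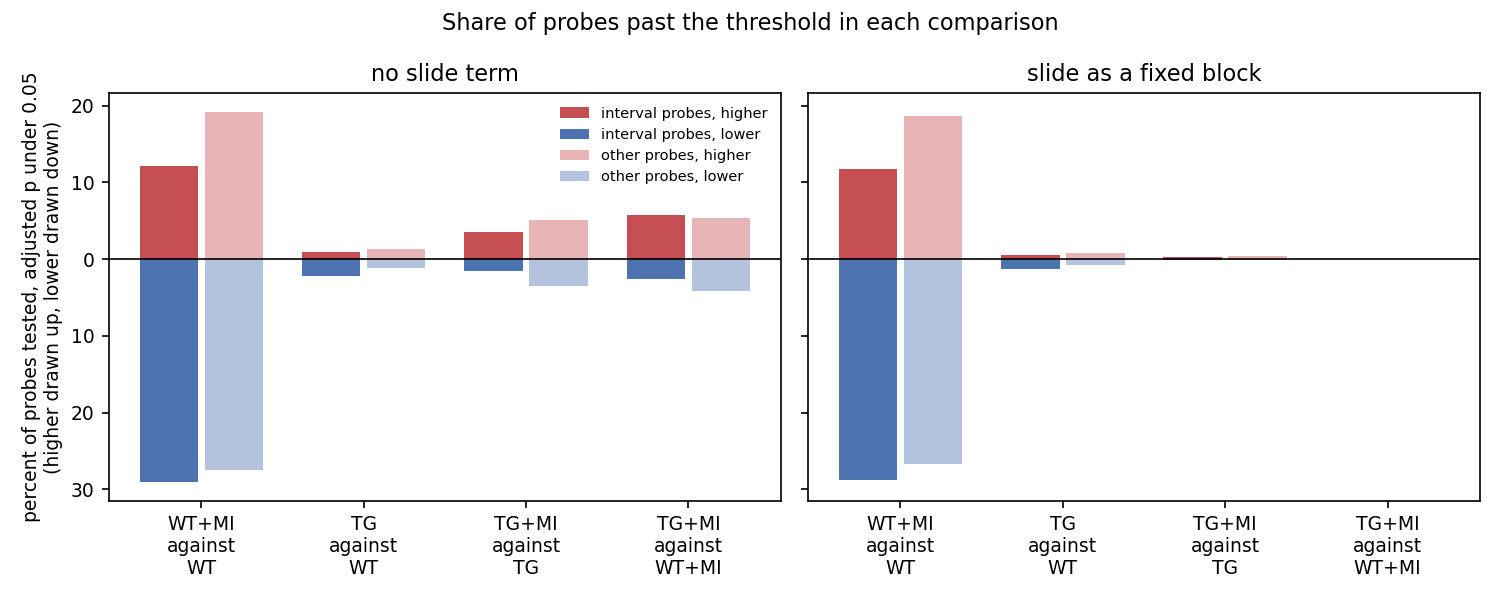
Share of probes (percent) called higher and lower in each comparison, for interval probes and for all other probes, without and with the slide as a term of the fit. In WT+MI against WT 12.1% of all members were higher and 29.1% lower, and the bars of both TG+MI comparisons shrink once the slide is a term.

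After infarction in wild-type hearts a large rise was measured downstream of Btg1, an antiproliferative gene of the BTG/TOB family. chr10:96098058-96098623_F was at -2.24, -1.98 and -2.98 on the WT arrays and at 2.08, 1.47 and 0.93 on the WT+MI arrays. The groups did not overlap, and the difference was 3.89 ± 0.33 (SE; limma, Benjamini-Hochberg adjusted p = 6.36e-05). A second forward interval further on, chr10:96103732-96103867_F, was at -3.57, -3.33 and -4.56 in WT, where 2 of 3 arrays were above background, and at -0.01, -0.61 and -1.32 in WT+MI, a measured difference of 3.17. The Btg1 probe nearest to the first interval, 12641 bases away, rose by 3.04 (adjusted p = 0.000174), and the other Btg1 probe, 15934 bases away, by 0.97 (adjusted p = 0.00661). The reverse-strand member chr10:96082444-96096696_R, opposite Btg1, read 1.33, 1.24 and 1.31 in WT and 1.40, 1.05 and 0.89 in WT+MI. Its difference of -0.18 ± 0.23 did not pass (adjusted p = 0.547), so the rises that passed in this locus were on the strand of Btg1.

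Morrbid is a long non-coding RNA that controls the lifespan of short-lived myeloid cells through the neighbouring cell death gene Bcl2l11, and 3 members on its strand rose. chr2:128211990-128215223_R, 14089 bases upstream of the Morrbid probe, was at -0.06, 0.05 and 0.10 in WT and at 2.53, 1.91 and 1.83 in WT+MI (2.06 ± 0.30, adjusted p = 0.00056). The neighbouring chr2:128217275-128217972_R went from -2.94, -2.45 and -2.34 to -0.05, -0.79 and -0.77 (2.04 ± 0.37, adjusted p = 0.00165). None of the WT values of either member reached a WT+MI value. The interval nearest to the Morrbid probe, chr2:128137419-128141735_R, 304 bases from it, went from -1.84, -1.65 and -1.66 to 0.02, -0.51 and -0.37 (1.43 ± 0.27, adjusted p = 0.00225), and Morrbid itself rose by 0.95 (adjusted p = 0.00471). The WT+MI arrays also had the higher sums of neutrophil and macrophage markers, whose part in these rises was not tested.

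Both chromosome 9 probes rose with Gm10639, a predicted gene whose probe lies on the same strand. chr9:78107225-78118850_F was at 0.23, -0.20 and 0.39 in WT and 2.68, 2.07 and 2.27 in WT+MI (2.20 ± 0.25, adjusted p = 0.000202). Its neighbour chr9:78104935-78116974_F was at -0.46, -0.74 and 0.03 and then at 1.98, 1.53 and 1.42 (2.03 ± 0.26, adjusted p = 0.000334). Gm10639, whose probe is 34393 bases from the first interval and 36269 from the second, rose by 1.96 (adjusted p = 0.000242). Because the 60-base probes abut, they count as 1 observation of 1 transcript region. Read end to end, the printed bases hold an open reading frame that runs across the join and stops at a tga. Whether this stretch codes for protein was not tested, and the interval name does not settle it.

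Inducible Hsp70, a chaperone of heat and ischaemic stress, is encoded by Hspa1a and Hspa1b, and the interval chr17:35080914-35090009 lies 3365 bases from the Hspa1b probe and holds the probe of the non-coding gene 1110038B12Rik. Its reverse-strand member on all 12 arrays was at -1.94, -1.68 and -1.94 in WT and at -0.05, -0.54 and -0.55 in WT+MI (1.48 ± 0.19, adjusted p = 0.000389). The forward-strand member rose by 1.55 ± 0.26 (adjusted p = 0.00108). A further reverse-strand member was above background on no WT array and on all WT+MI arrays, at least 3.74-fold higher. For comparison, Hspa1b rose by 5.41 (adjusted p = 0.000709) and 1110038B12Rik by 1.56 (adjusted p = 0.000345), so that members on both strands rose, as these genes did. In the interval chr5:23195569-23218551, 3 members also moved together while the gene AI506816 inside it was measured at -0.20 (adjusted p = 0.409). Its reverse-strand member on all arrays rose by 1.86 ± 0.21 (adjusted p = 0.000206), another reverse-strand member was at least 2.01-fold higher, and the forward-strand member, above background on 1 of 3 WT arrays, gave a measured difference of 1.86.

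Other large rises lay at other loci. chr18:35967933-35986564_F was at -3.16, -3.10 and -2.93 in WT and at 1.83, -0.32 and 1.14 in WT+MI, a difference of 3.95 ± 0.45 (adjusted p = 0.000215). Its interval lies 1176 bases downstream of a probe of Ube2d2a on the same strand, and the change of that gene is not given here. A second probe of the same interval and strand was above background on 2 WT arrays and no WT+MI array. Its measured difference among the slide 1 arrays was -0.05, given with no test, so it did not show the rise. chr7:128341797-128414692_R went from 0.63, 0.23 and 0.53 to 2.67, 2.23 and 2.29 (1.94 ± 0.21, adjusted p = 0.000175). A member opposite the gene of lipopolysaccharide-binding protein, chr2:158169020-158191295_R, 11336 bases from the Lbp probe, went from -0.31, -0.46 and -0.33 to 1.65, 1.16 and 0.77 (1.56 ± 0.24, adjusted p = 0.000769). Lbp itself was measured at 0.21 (adjusted p = 0.498). A forward probe of that interval, not itself a member, matched the promoter of Snhg17 on the strand opposite that gene. The member thus reads the strand of Snhg17, whose own change is not given here. Spread between WT+MI arrays was wide in 3 of the 8 largest rises: chr18:90750100-90772025_F was at 0.86, -0.11 and -2.01, chr17:88225376-88238756_F at 1.93, 0.75 and -1.14, and chr4:33375464-33377138_R at 0.99, -0.56 and -1.85. WT+MI 1 was the highest and WT+MI 3 the lowest each time, and the differences were 2.37 ± 0.55, 2.33 ± 0.65 and 2.18 ± 0.58 (adjusted p = 0.006, 0.0137 and 0.011).

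**Figure D2:**
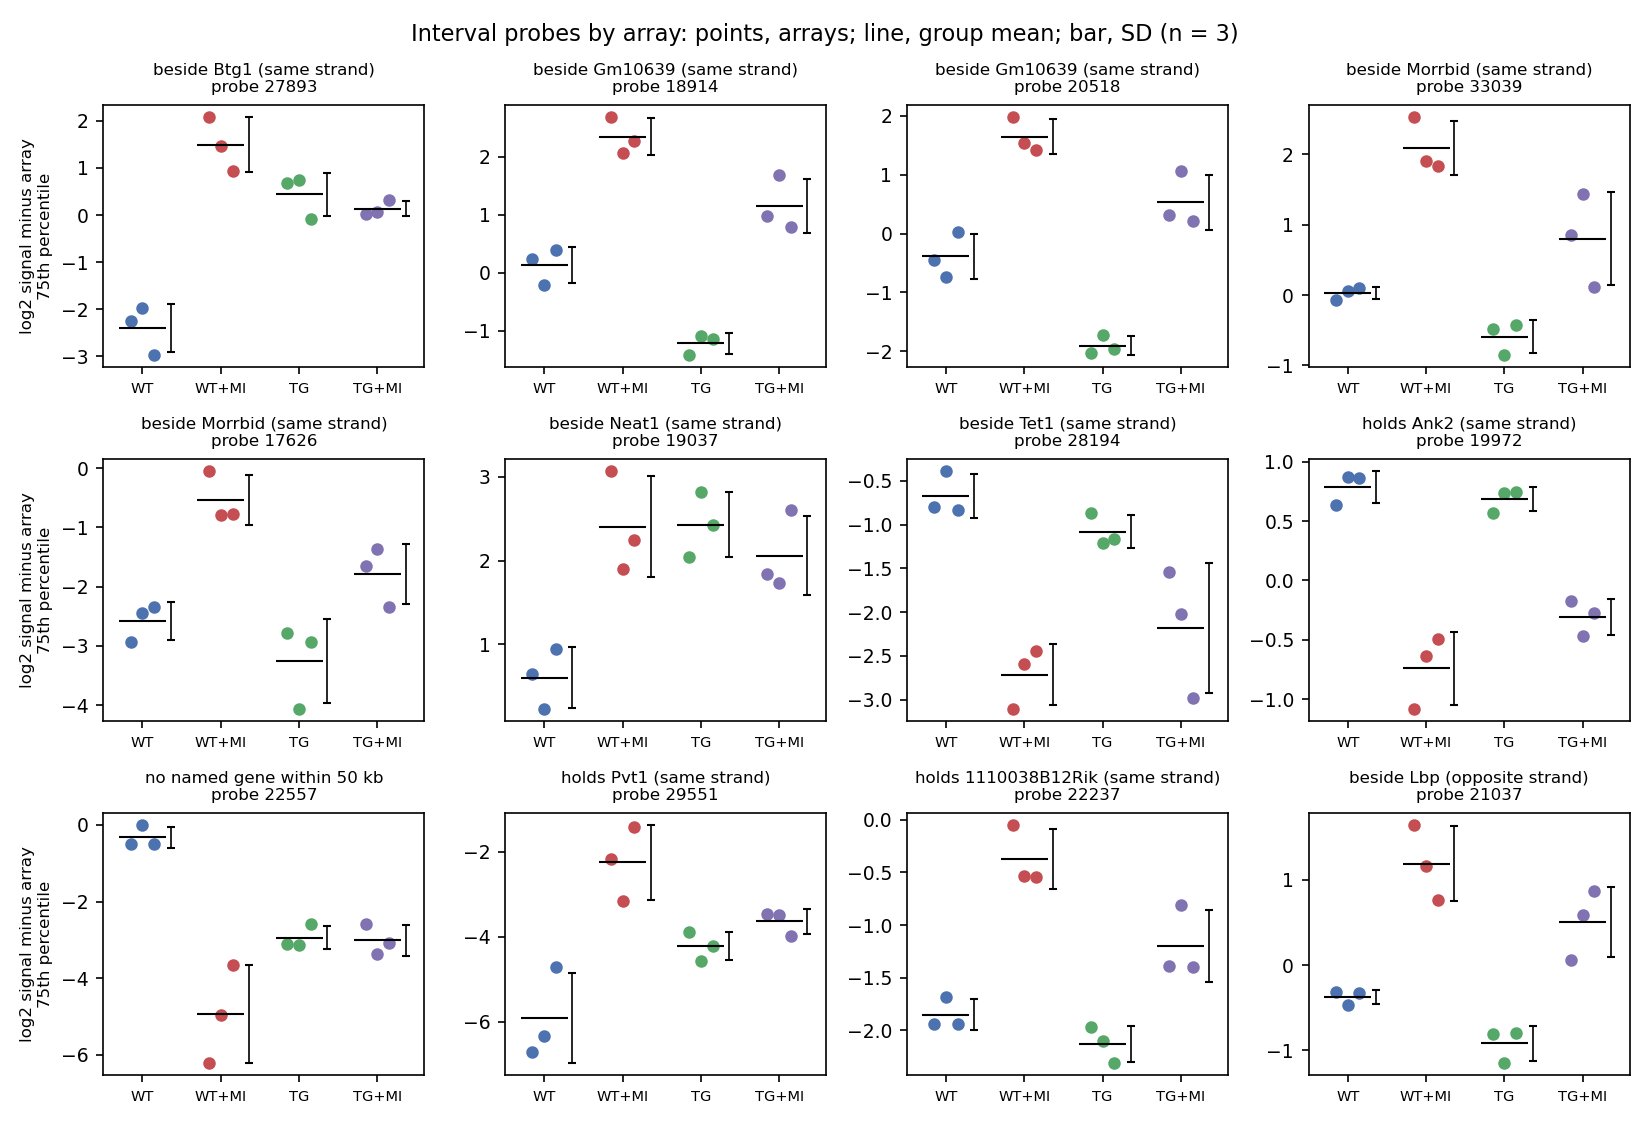
Log2 signal relative to each array's 75th percentile (y axis) on the 12 arrays, by group (x axis), for 12 of the members, each panel named by the nearest gene and the last digits of its probe. Points are single arrays, and points below background are part of the plot: the Pvt1 member was above background on 0 of 3 WT arrays and 1 of 3 TG arrays, the chromosome 13 member on 1 of 3 WT+MI arrays and a Morrbid member on 2 of 3 TG arrays. The Btg1 member was lowest on the 3 WT arrays, and the Ank2 member fell in both infarcted groups.

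Members beside known long non-coding RNA genes were taken from a list of 46 such genes. Within 50000 bases of a probe of a listed gene, on either strand, 39 members lay nearest to 16 of them, and 8 rose and 6 fell after infarction in wild-type hearts (20.5% and 15.4%, against 18.8% and 27.5% of all probes tested), with a median difference of 0.06 against -0.12. Of the listed genes themselves, 33 were tested, 11 rose and 6 fell. A probe of Neat1, the scaffold of nuclear paraspeckles, rose by 1.09 (adjusted p = 0.00205). The member on the strand of Neat1 and 8183 bases downstream of a Neat1 probe, chr19:5834117-5835940_R, was at 0.64, 0.23 and 0.94 in WT and at 3.07, 1.90 and 2.25 in WT+MI (1.80 ± 0.34, adjusted p = 0.00205), with no overlap. Whether this member lies within Neat1 was not checked. On the strand opposite Neat1, chr19:5841103-5845579_F rose by 0.53 (adjusted p = 0.017), and 2 members of chr19:5771425-5848475_F differed by 0.93 (adjusted p = 0.00697) and -0.24 (adjusted p = 0.114).

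Pvt1 is the non-coding neighbour of the growth gene Myc. Its probe on all arrays rose by 1.60 (adjusted p = 0.000322). The member chr15:61984389-62102500_F, whose interval holds that probe, was not above background on any WT array, at measured values of -6.71, -6.33 and -4.71, and was at -2.16, -3.16 and -1.40 in WT+MI, at least 4.23-fold higher. A second member, chr15:62090565-62091770_F, differed by 0.27 (adjusted p = 0.19). Gas5 and the Snhg genes are hosts of small nucleolar RNAs, and Gas5 rose by 0.91. The member opposite it, chr1:162965309-162970704_R, rose by 0.62 ± 0.18 (adjusted p = 0.0185), while a forward member on 2 of 3 WT arrays was measured at 1.31. The member chr3:34003359-34537330_F, 163 bases from the probe of Sox2ot, which overlaps the stem cell gene Sox2, rose by 1.29 ± 0.24 (adjusted p = 0.00204). chr16:84708695-84708806_F, beside the microRNA host gene Mir155hg, rose by 0.58 (adjusted p = 0.0274).

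Falls near listed genes included members on either strand. chr2:119412770-119435110_R, on the strand opposite Oip5os1, the Cyrano non-coding RNA, went from -0.45, -0.39 and -0.39 to -1.86, -1.70 and -1.44 (-1.25 ± 0.15, adjusted p = 0.000246), and Oip5os1 fell by 0.46. Dleu2, a microRNA host gene, had members at -0.61 ± 0.12 (chr14:62294849-62301165_R, adjusted p = 0.0027) and -0.57 (chr14:62263564-62307496_R, adjusted p = 0.0457). Firre organises chromosome contacts in the nucleus. The member chrX:47890565-47915775_F, whose interval holds the Firre probe and which reads the opposite strand, differed by -0.59 (adjusted p = 0.0252). On the strand of Firre, chrX:47893703-47996700_R, above background on 2 of 3 WT+MI arrays, gave a measured difference of -1.21. At Snhg14, chr7:66562613-66565106_F differed by -0.34 (adjusted p = 0.0205). The members at Tug1 on both strands of chr11:3538125-3554450 were measured at -0.12 and -0.10.

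A member that is above background on every array of one group and none of the other has only a bound. In WT+MI 19 members were detected in this way against WT, with bounds that reached 8.05-fold and had a median of 3.51. The bound sets the mean of the bright group against, on each array of the dim group, the lowest signal still well above background or the probe's own value, whichever was higher. chr1:134867906-134885481_R, 945 bases downstream of the probe of Mdm4, an inhibitor of p53, was at -4.85, -4.48 and -4.44 in WT, all below background, and at -0.41, -2.47 and -1.06 in WT+MI, at least 8.05-fold higher. The forward strand of the same interval differed by -0.03 ± 0.18 (adjusted p = 0.896), and the nearest Mdm4 probe rose by 0.51 (adjusted p = 0.0135). The next largest bounds were at least 5.61-fold for chr13:15947521-15999246_F, 4.60-fold for chr14:33975934-33998694_R and 4.52-fold for chr3:131128972-131163308_R. In the other direction 57 members were above background on all WT arrays and on no WT+MI array, with a median bound of 1.43-fold. Such counts over all probes are not given here or for the comparisons below, so the members' counts have no background. Of all probes, 50.7% to 53.7% were above background on the WT arrays and 48.7% to 50.9% on the WT+MI arrays.

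Among the falls were members beside Tet1 and within Ank2. chr10:62267317-62269871_R, 4577 bases downstream of a probe of Tet1, an enzyme that oxidises 5-methylcytosine, was at -0.80, -0.39 and -0.83 in WT and at -3.11, -2.60 and -2.44 in WT+MI (-2.05 ± 0.32, adjusted p = 0.000818). That Tet1 probe differed by -2.49 (adjusted p = 0.000558) and a second by -0.86 (adjusted p = 0.00111). The member within Ank2, chr3:127037711-127111912_R, went from 0.63, 0.87 and 0.86 to -1.09, -0.64 and -0.50 (-1.53 ± 0.16, adjusted p = 0.000137). Ank2 encodes ankyrin-B, which anchors ion channels and exchangers in cardiomyocytes, and its probe in the interval differed by -1.45 (adjusted p = 0.000292). Both members lie on the strand of their gene.

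Other members also fell, and beside Ccdc6 the gene itself did not. Values of the genes nearest to the other members below are not given here. chr10:69679644-69682458_F, 24335 bases downstream of the probe of Ccdc6, was at -0.56, -0.60 and -0.66 in WT and at -3.10, -2.0 and -2.43 in WT+MI (-1.90 ± 0.33, adjusted p = 0.00135), while Ccdc6 was measured at -0.07 (adjusted p = 0.697). The overlapping chr10:69669025-69686275_F was above background on 1 of 3 WT+MI arrays and gave a measured difference of -1.89. On chromosome 1, chr1:95871175-95886625_F went from -1.31, -0.96 and -1.10 to -3.56, -3.18 and -2.76 (-2.05 ± 0.22, adjusted p = 0.000164), with no named probe nearer than 34949 bases. On chromosome 10 the overlapping intervals chr10:39666719-39679959_R and chr10:39659425-39674200_R differed by -1.95 ± 0.33 (adjusted p = 0.00126) and -1.72 ± 0.17 (adjusted p = 9.51e-05). The other 3 of the 8 largest falls were chr4:129479254-129480362_R (-1.75 ± 0.37), chr4:11893711-11921443_F (-1.74 ± 0.27) and chr2:77152807-77155092_R (-1.69 ± 0.37).

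Some of the deepest falls ended below background. chr13:24615451-24615973_F, with no named probe within 50000 bases, was at -0.50, 0.00 and -0.49 in WT, and at -6.21, -4.97 and -3.65 in WT+MI, where 1 of 3 arrays was above background, so its measured difference of -4.62 is given with no test. chr4:135136959-135139933_F was at -1.24, -3.58 and -1.58 in WT and below background on all WT+MI arrays, at least 3.84-fold lower. chr14:78223544-78224961_R, 1134 bases downstream of the probe of Dnajc15 and carrying an ATTAAA, was at -2.45, -2.34 and -2.52 in WT and was at least 3.03-fold lower. Dnajc15 differed by -0.66 (adjusted p = 0.00654). The bounds for chr19:4210704-4211111_R, chr1:72983462-72987115_F and chr11:102991688-102992353_R were 2.56-fold, 2.52-fold and 2.36-fold.

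Probes of the same interval moved the same way more often than not. The shares have no background, since none is given for unrelated members, and the median difference over all members was -0.26. Of 55 intervals with a pair of members on 1 strand, the 2 differences had the same sign in 39 (70.9%). Of 159 with a pair on opposite strands it was 109 (68.6%). Both members passed the test in 32 of the latter, 25 times in the same direction and 7 times in opposite directions. Across the 159 pairs Pearson's r of the differences was 0.17, and the points share arrays and interval. Of 29 intervals with 3 or more members, all had the same sign in 15 (51.7%).

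In 4 intervals, pairs that read some of the same bases on both strands went in opposite directions, and 3 of the pairs are printed above. In chr12:77544397-77564122, where 35 bases are shared, the reverse member fell from 0.81, 0.72 and 0.90 to -1.22, -1.03 and -0.12 (-1.60 ± 0.25, adjusted p = 0.000878). The forward member was at -4.00, -2.85 and -3.27 and then at -0.61, -1.42 and -3.14 (1.65 ± 0.62, adjusted p = 0.0479), and WT+MI 3 lay within the range of WT. Among the slide 1 arrays alone the adjusted p of the forward member was 0.0791. In chr5:35975265-35982561, 12200 bases from the probe of the serine protease gene Htra3, 34 bases are shared, and the forward member rose by 1.01 ± 0.17 (adjusted p = 0.00132) while the reverse member differed by -0.58 ± 0.14 (adjusted p = 0.00694). In chr11:19778600-19815950, where 54 bases are shared, the differences were 0.69 ± 0.18 forward (adjusted p = 0.0112) and -0.49 ± 0.11 reverse (adjusted p = 0.00578). In chr18:90750100-90772025, where the probe coordinates overlap by 37 bases, the forward member rose by 2.37 and the reverse member fell from 1.27, 1.07 and 1.14 to -0.69, -0.56 and 0.17 (-1.52 ± 0.21, adjusted p = 0.000508). The probes of a pair are complementary over these bases. Whether each signal comes from this stretch alone was not checked, since transcripts and the genome were not searched. The bases shared in chr12:77544397-77564122 hold a repeat of GA on the forward strand. These pairs were singled out after their values were seen.

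Opposite directions were also found among members of 1 interval whose probes do not overlap. In chr1:95871175-95886625 both forward members fell (-2.05 and -1.38) and the reverse member rose by 0.99 (adjusted p = 0.0358, and 0.0583 among the slide 1 arrays alone). In chr4:138653689-138688814 the reverse member rose by 0.70 (adjusted p = 0.0204) and the forward member differed by -0.63 (adjusted p = 0.00919). On 1 strand, the forward members of chr17:29374758-29387733, whose overlap was not checked, differed by -0.47 (adjusted p = 0.0314) and 1.62 (adjusted p = 0.00463).

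**Figure D3:**
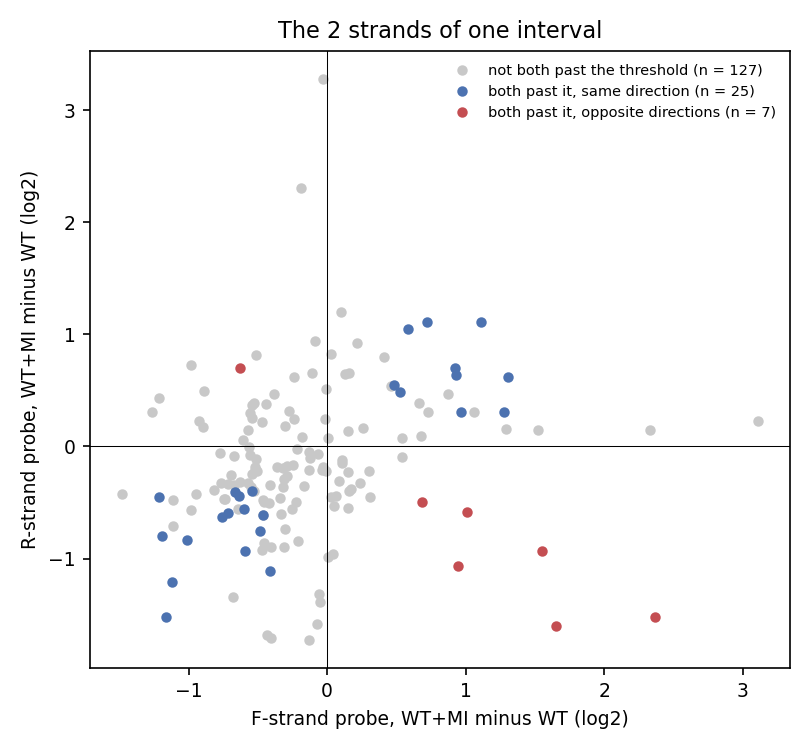
Log2 difference WT+MI minus WT of the forward (x axis) and the reverse member (y axis) in the 159 intervals with 1 member on each strand, 1 point an interval. In 127 intervals the members were not both called, in 25 both were called in the same direction and in 7 in opposite directions.

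Most members lay near a named gene. Distances here run from the interval to the gene's probe, not to the end of the gene. In 377 members the interval held a probe of a named gene, in 292 the nearest was within 5 kb, in 729 between 5 and 50 kb, in 282 between 50 and 500 kb, and in 3 further away. Among those within 5 kb and on the same strand, 148 lay downstream and 41 upstream of the gene's probe. The whole interval of 70 members lay between probes of a single gene, on its strand in 47.

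Across these pairs, the differences after infarction went together on the same strand more than on the opposite one, given here as descriptions since the pairs share arrays and loci. Where the gene's probe lay inside the interval, Pearson's r was 0.60 over 145 same-strand pairs and 0.17 over 107 opposite-strand pairs. Within 5 kb it was 0.35 (157 pairs) and 0.085 (73 pairs), between 5 and 50 kb 0.39 (258 pairs) and 0.13 (217 pairs), and between 50 and 500 kb 0.32 (96 pairs) and -0.083 (51 pairs). The sign agreed in 104 of the 145 same-strand pairs inside an interval (71.7%) and in 70 of the 107 opposite-strand pairs there (65.4%), so by sign the strands were closer than by correlation. No share for unrelated pairs is given beside these.

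**Figure D4:**
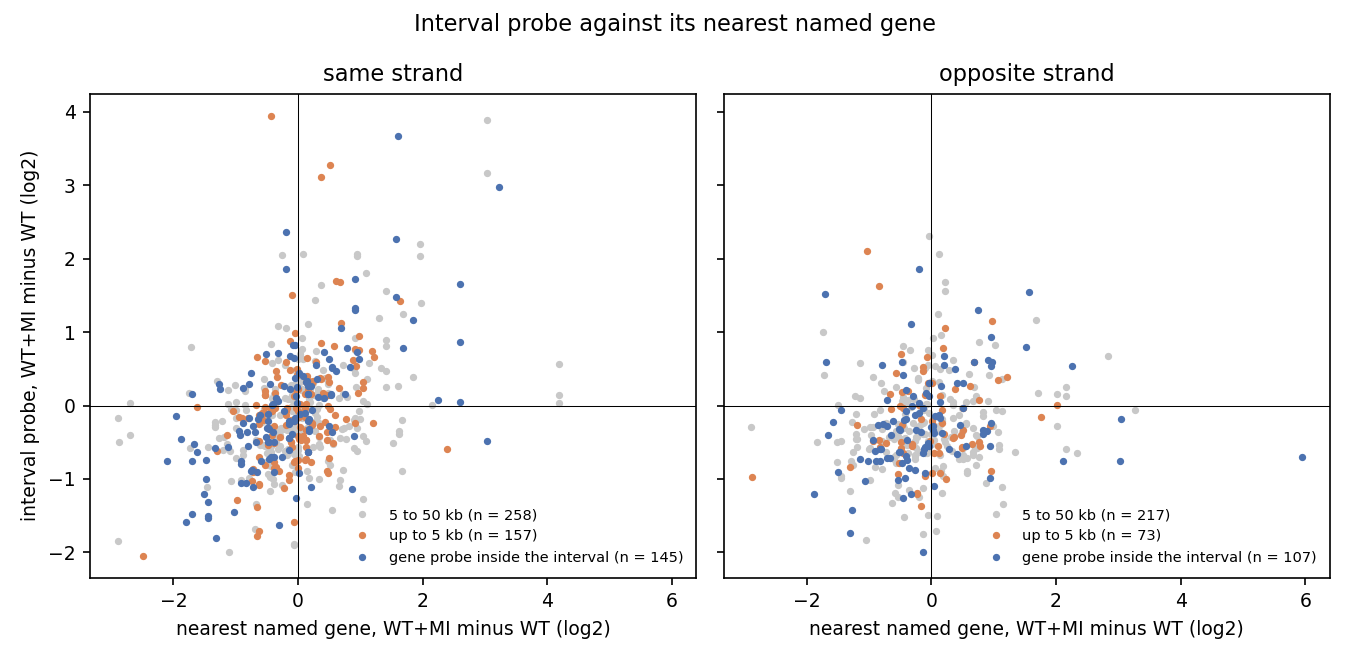
Log2 difference WT+MI minus WT of the nearest named gene's probe (x axis) and of the member (y axis), 1 point a pair, on the same strand (left) and the opposite strand (right), coloured by distance class up to 50 kb. For pairs with the gene's probe inside the interval, the points on the left have a Pearson's r of 0.60 and those on the right 0.17.

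Without infarction, few interval probes differed between TG and WT. Among 1219 members above background on all WT and TG arrays, 31 passed (2.54%), 10 higher and 21 lower, against a background of 2.12% of 25569 probes (1.17% higher and 0.954% lower). That share is near the background. Over all members 53 passed, 16 higher and 37 lower, against 2.49% of all probes tested (1.25% and 1.24%), and 32 passed with slide as a term. These counts include members that entered through 1 of these groups. The count of 53 became 24, 22 and 24 without WT 1, 2 or 3, 25, 30 and 32 without TG 1, 2 or 3, and 87 without TG+MI 3, which enters only the shared estimate of the spread. Scaled to each array's median, 23 were higher and 32 lower.

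The largest rise in TG was again beside Btg1. chr10:96098058-96098623_F near Btg1 was at 0.68, 0.73 and -0.08 in TG against -2.24, -1.98 and -2.98 in WT (2.84 ± 0.33, adjusted p = 0.00451, and 0.00639 with slide as a term). chr10:96103732-96103867_F was at -0.81, -1.13 and -1.50 in TG, a measured difference of 2.67 with 2 of 3 WT arrays above background. The Btg1 probes differed by 1.77 (adjusted p = 0.0227) and -0.37 (adjusted p = 0.434). chr6:31007184-31007725_R, with no named probe within 50000 bases, went from -0.88, -0.80 and -1.19 in WT to 1.28, 1.68 and 1.12 in TG (2.32 ± 0.32, adjusted p = 0.00715, and 0.0177 with slide as a term). The member downstream of a Neat1 probe was at 2.04, 2.81 and 2.42 in TG (1.82 ± 0.34, adjusted p = 0.0229). The Neat1 probe that rose after infarction was measured at -0.42 in TG against WT (adjusted p = 0.31). With slide as a term the adjusted p of that member was 0.0584. The comparisons of TG and of WT+MI with WT share the WT arrays.

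Other rises in TG were smaller. chr3:95443575-95462543_F, 4312 bases upstream of a probe of Mcl1, an antiapoptotic member of the BCL2 family, went from -3.75, -3.83 and -3.86 to -2.68, -2.42 and -2.57 (1.26 ± 0.19, adjusted p = 0.0101), while the Mcl1 probes were measured at -0.22 and -0.20. chr4:138653689-138688814_R rose by 1.28 (adjusted p = 0.0145), chr2:22782700-22801900_R by 1.15 (adjusted p = 0.0167), chr11:59206727-59207172_R by 1.08 (adjusted p = 0.0166) and chr14:73746324-73749119_R by 0.85 (adjusted p = 0.0454). The last pair had an adjusted p of 0.0528 and 0.0791 with slide as a term. Detected on all TG arrays and no WT array were 4 members, led by chr7:66574000-66577193_F (at least 2.41-fold), chr8:41475940-41476460_F (2.33-fold) and chr9:71687805-71689542_R (2.07-fold).

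Among the falls in TG, the chromosome 9 pair beside Gm10639 went the other way from infarction. chr9:78107225-78118850_F was at -1.42, -1.09 and -1.13 in TG against 0.23, -0.20 and 0.39 in WT (-1.35 ± 0.25, adjusted p = 0.0222, and 0.0508 with slide as a term). chr9:78104935-78116974_F was at -2.03, -1.72 and -1.96 (-1.52 ± 0.26, adjusted p = 0.0156, and 0.0473 with slide as a term), and Gm10639 differed by -1.55 (adjusted p = 0.00929). Deepest of the falls among members above background on all WT and TG arrays, chr13:24615451-24615973_F was at -3.10, -3.14 and -2.60 in TG against -0.50, 0.00 and -0.49 in WT (-2.62 ± 0.50, adjusted p = 0.0258, and 0.0503 with slide as a term). chr7:134369091-134376366_R, chr5:113594167-113645342_R, chr3:84609788-84618062_R and chr12:81217572-81233910_R differed by -1.54, -1.28, -1.15 and -1.14 (adjusted p = 0.0064, 0.0118, 0.00215 and 0.00781), and each stayed past the threshold with slide as a term. chr12:52880692-52933444_F, the eighth, was at -3.16, -2.81 and -2.75 in TG and -0.71, -0.83 and -2.29 in WT (-1.63 ± 0.35, adjusted p = 0.0392, and 0.0745 with slide as a term). Bounds in this direction were found for 17 members, up to 2.67-fold for chr11:102991688-102992353_R. Among them, chr2:94008913-94019798_R was at -2.79, -2.76 and -2.96 in WT and below background at -6.34, -5.85 and -4.67 in TG, at least 2.40-fold lower.

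In transgenic hearts few interval probes passed the test after infarction. Among 1232 members above background on all TG and TG+MI arrays, 59 passed (4.79%), 35 higher and 24 lower, against a background of 7.95% of 25680 probes (4.47% higher and 3.48% lower). Over all members 86 passed, 59 higher and 27 lower, against 8.32% of the probes tested (4.97% and 3.35%). That count includes members that entered through 1 of these groups, and 183 members entered through TG+MI alone. With slide as a term 7 of the 1683 passed, and within slide 2, where TG has 1 array, 0 passed with limma after adjustment and 114 had an unadjusted p under 0.05. The count was 38 without TG 1, 50 without TG 2 and 32 without TG+MI 2.

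The comparisons of infarcted with uninfarcted hearts in each genotype share no arrays. They do share 1 estimate of each probe's spread, from the single model of all 12 arrays, so the lists of calls are not independent. Of the 692 called in wild-type and the 86 in transgenic hearts, 67 were called in both and 59 of them in the same direction, 36 higher and 23 lower, which is 8.53% of the first list and 68.6% of the second. Those called in both were 9.68% of the first list and 77.9% of the second, against 13.4% and 74.4% over all probes tested. The share in the same direction, 88.1% of those called in both, was 97.3% over all probes tested, where it was 1797 of 1847. Of the 203 members that rose in wild-type hearts, 174 had a positive difference in transgenic hearts, with medians of 0.93 and 0.38. Of the 489 that fell, 273 had a negative difference, with medians of -0.74 and -0.04. These counts by sign have no share over all probes beside them. The median TG+MI minus TG difference over all members was 0.10. Over the 1118 members on all 12 arrays the differences had a Pearson's r of 0.50 and a Spearman's rho of 0.44, as a description.

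**Figure D5:**
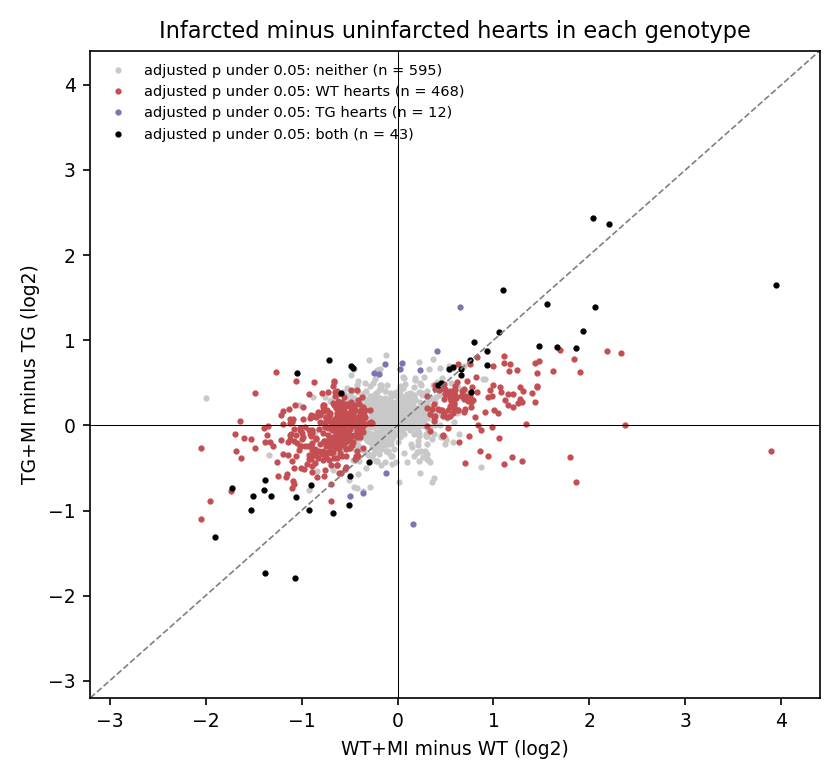
Log2 difference WT+MI minus WT (x axis) against TG+MI minus TG (y axis) for the 1118 members above background on all 12 arrays, 1 point a member. Called in neither were 595 members, in wild-type hearts only 468, in transgenic hearts only 12 and in both 43. The points spread further along the x axis.

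The chromosome 9 pair gave the largest rises in transgenic hearts. chr9:78104935-78116974_F was at -2.03, -1.72 and -1.96 in TG and at 0.31, 1.06 and 0.22 in TG+MI (2.43 ± 0.26, adjusted p = 0.000849, and 0.032 with slide as a term). chr9:78107225-78118850_F was at -1.42, -1.09 and -1.13 and then at 0.99, 1.68 and 0.79 (2.36 ± 0.25, adjusted p = 0.00082, and 0.0351 with slide as a term). Gm10639 rose by 2.41 (adjusted p = 0.000437). The Morrbid member chr2:128211990-128215223_R went from -0.49, -0.85 and -0.43 to 0.86, 1.43 and 0.11 (1.39 ± 0.30, adjusted p = 0.0193). The member opposite Lbp went from -0.80, -1.15 and -0.80 to 0.06, 0.58 and 0.87 (1.42 ± 0.24, adjusted p = 0.00749). With slide as a term these last members differed by 1.23 and 1.30, with an adjusted p of 0.281 and 0.161.

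The other rises named were chr18:35967933-35986564_F (1.64, adjusted p = 0.0493), chr14:115443612-115445950_F (1.59 ± 0.29, adjusted p = 0.00998), chr14:115423660-115463160_R (1.39, adjusted p = 0.014) and chr7:128341797-128414692_R (1.11, adjusted p = 0.0123). Of the falls, chr2:143992000-143992611_F was at -0.53, -0.78 and -0.77 in TG and at -1.71, -1.86 and -1.60 in TG+MI (-1.03 ± 0.11, adjusted p = 0.000868, and 0.0418 with slide as a term). It was higher in TG than in WT by 0.71 (adjusted p = 0.0112). The overlapping chr10:93774693-93893616_F and chr10:93819821-93976621_F differed by -1.79 ± 0.27 (adjusted p = 0.00496) and -1.73 ± 0.24 (adjusted p = 0.00316). The Ank2 member went from 0.57, 0.74 and 0.75 to -0.17, -0.47 and -0.27 (-0.99 ± 0.16, adjusted p = 0.00571). chr10:69679644-69682458_F went from -0.03, -0.08 and -0.68 to -1.01, -2.23 and -1.48 (-1.31 ± 0.33, adjusted p = 0.0368), and chr10:69669025-69686275_F differed by -1.09 ± 0.19 (adjusted p = 0.00862). The member in the interval of Snhg18, chr15:32167516-32174417_R, differed by -1.16 (adjusted p = 0.0419). With slide as a term, chr2:143992000-143992611_F was the only member of this paragraph to pass.

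Members detected on all TG+MI arrays and no TG array numbered 93, with 46 bounds above 1 and the highest at 2.98-fold for chrX:18734106-18744367_R, and 0 went the other way. That member was at -3.34, -2.66 and -2.42 in WT, -1.57, -1.72 and -1.71 in WT+MI, below background at -4.23, -4.47 and -4.13 in TG, and at -2.51, -2.39 and -2.44 in TG+MI. It was thus dimmest in TG and rose after infarction in wild-type hearts too (1.14 ± 0.20, adjusted p = 0.00145). The TG+MI arrays also had the highest detection over all probes, as given above, and its part in these counts was not tested.

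Between the infarcted groups 104 of 1225 members above background on all arrays passed (8.49%), 66 higher in TG+MI and 38 lower, against a background of 9.37% of 25800 probes (5.12% higher and 4.26% lower). Over all members 140 passed, 96 higher and 44 lower, against 9.38% of the probes tested (5.33% and 4.05%). That count too includes members that entered through 1 of these groups, 183 of the members having entered through TG+MI alone. WT+MI and TG+MI share no slide, and with slide as a term 0 passed with limma, while 140 had an unadjusted p under 0.05. A fit on these groups alone also gave 0, with 399 at an unadjusted p under 0.05. Without TG+MI 1 or TG+MI 3 the count was 0, with 398 and 369 at an unadjusted p under 0.05, and it was 214 without TG+MI 2. It was 4 and 36 without WT+MI 1 or 2, 51, 41 and 48 without WT 1, 2 or 3, and 67 and 80 without TG 2 or 3. The balance of directions turned with the processing: scaled to each array's median, 200 were higher and 39 lower, and with the normexp background 48 were higher and 63 lower, with a median difference of -0.05 in place of 0.18. Slide and group cannot be told apart in this comparison.

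The named members of that comparison are given as values. Lower in TG+MI were chr18:35967933-35986564_F (-2.27), chr18:90750100-90772025_F (-2.23), chr1:134867906-134885481_R near Mdm4 (-2.13), chr14:33975934-33998694_R (-2.06), chr10:96098058-96098623_F near Btg1 (-1.36), chr2:128211990-128215223_R near Morrbid (-1.29), chr17:29374758-29387733_F (-1.29) and the Sox2ot member (-1.26, with adjusted p = 0.0287). Higher were chr3:85571525-85645700_F (1.47, adjusted p = 0.0272), chr2:77152807-77155092_R (1.34), the reverse member of chr12:77544397-77564122 (1.08), chr12:119825125-119850750_R (1.02), chr6:108162092-108162886_R (1.01), the reverse member of chr18:90750100-90772025 (0.99), chr2:155664540-155665222_R (0.97) and chr2:156654675-156665430_R (0.95). All 16 named had an adjusted p below 0.05 without the slide term and none with it. Detected on all TG+MI arrays and no WT+MI array were 144 members, with 79 bounds above 1 and the highest at 2.08-fold, and 0 went the other way. These counts too have no background over all probes, which were also detected most widely on the TG+MI arrays.

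The difference between the responses to infarction, TG+MI minus TG against WT+MI minus WT, was tested as an interaction. It passed in 75 of the 1118 members on all 12 arrays (6.71%), 63 with the more positive response in transgenic hearts and 12 with the more negative, against a background of 5.92% of 24400 probes (3.68% and 2.24%). Over all members 123 passed, 96 and 27, against 6.10% of the probes tested (3.74% and 2.36%). All members include 183 that entered through TG+MI alone. With slide as a term 0 passed with limma, while 250 had an unadjusted p under 0.05. The median interaction was 0.27 in the members on all arrays and 0.11 over all probes so measured. The count of 123 became 18, 8 and 9 without WT 1, 2 or 3, 40 and 53 without WT+MI 1 or 2, 14 and 16 without TG 1 or 2, 10, 198 and 72 without TG+MI 1, 2 or 3. The Btg1 member differed most: 3.89 after infarction in wild-type hearts and -0.30 ± 0.33 (adjusted p = 0.609) in transgenic hearts, whose TG+MI arrays were at 0.03, 0.06 and 0.33, an interaction of -4.20. With slide as a term it was -3.67 (adjusted p = 0.0875).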

How the data were processed

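Mouse heart RNA was measured in 12 samples on 12 single-colour arrays, 3 in each of 4 groups. The deposited spot intensity was background-subtracted by Agilent Feature Extraction 12.0.3.1, per the file headers, on a linear scale and not normalized between arrays. The authors also deposited a table of log2 values of the same arrays, whose columns had medians of 4.23 to 4.24 and ranked probes as the matching array did (Spearman at least 0.99999, against at most 0.962 with any other array). It served as an alternative. How it was made is not given in the sources used here, apart from limma, which is named with no version in the submitters' processing notes.

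Each array's log2 intensity was set relative to its 75th percentile (non-control probes), and the spots of 1 probe were averaged. Outlier spots were dropped, which left out 49 of 56605 probes. limma 3.58.1 in R 4.3.3 was fitted over the 29869 probes that some group had well above background on its 3 arrays, with all 12 arrays in 1 model of group means. p-values were adjusted over all 29869 by Benjamini-Hochberg, with a threshold of 0.05. No source says that arrays are separate animals, so the spread behind the p-values is that between these samples and may be technical, and the number of arrays limits the precision. A test on simulated data for WT+MI against WT, over 29869 probes, recovered 54 of 100 differences of 1 log2 unit and 90 of 100 of 2 log2 units, with 4 false calls. It drew independent noise for each probe and array and changed only these probes, whereas 46.3% of probes passed in the real comparison. Its counts therefore check the code and do not give the recovery or false calls of the real test.

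Members and lists were chosen with earlier results of these data known. Named for each comparison were, among members that passed, were above background on all arrays compared and had groups that do not overlap, the 8 largest rises and falls, and the 5 largest bounds in each direction. Also named were the 5 largest interactions in each direction, the 6 intervals with several members and the largest mean change, and members near listed long non-coding RNAs. Gene names of neighbouring probes were updated through RefSeq by accession (32966 probes), symbol (10218) or synonym (523). Replicate numbers did not pair the samples: deviations of same-numbered arrays correlated at -0.26 to 0.12 over 18 pairs. Alternatives changed the scaling, background, filter, samples, slide, replicate block or 1 array at a time. Coordinates are those of the files (mm9). No mm9 genome or annotation was used here.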

Additional observations from a re-analysis of the deposited data

Results flagged for a closer look

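The response to infarction differed between wild-type and transgenic hearts, by the interaction test over all 12 arrays, in 123 members (7.31%, against 6.10% of all probes tested). That count fell to 0 with slide as a term and to 8 without WT 2. The members tested include 183 that entered through TG+MI alone. Among members above background on all 12 arrays the count was 75 of 1118 (6.71%, against 5.92% of all probes so measured). The 5 largest in the direction of a more positive response in transgenic hearts were chr12:52880692-52933444_F (1.89), chr1:95871175-95886625_F (1.78), chr12:81217572-81233910_R (1.67), chr17:86092322-86093123_F (1.58) and chr5:113594167-113645342_R (1.48). For example, chr12:81217572-81233910_R fell by 1.05 in wild-type hearts (adjusted p = 0.000758) and rose by 0.62 in transgenic hearts (adjusted p = 0.0415), and chr17:86092322-86093123_F differed by -1.06 (adjusted p = 0.000489) and 0.53 (adjusted p = 0.0519). The 5 largest in the other direction were chr10:96098058-96098623_F (-4.20), chr6:31007184-31007725_R (-2.53), chr19:5834117-5835940_R (-2.17), chr4:3746945-3747603_F (-1.56) and chr2:22782700-22801900_R (-1.56). Of these, chr4:3746945-3747603_F lies 6702 bases downstream of a probe of Lyn, a Src-family kinase of blood cells. It was at -2.81, -2.45 and -2.53 in WT, -1.0, -1.63 and -1.57 in WT+MI, -2.14, -2.09 and -2.02 in TG and -2.28, -2.24 and -2.83 in TG+MI. None of the 10 passed with slide as a term, and slide and infarcted group largely cannot be told apart in transgenic hearts.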

How the results depend on the processing

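After infarction in wild-type hearts the 16 largest rises and falls that passed were followed through the refits. Each kept its call and direction in every refit that included it, 350 results in all. Members with other calls in this comparison did not all do so. Among the slide 1 arrays alone the limma adjusted p was 0.0791 for chr12:77544397-77564122_F and 0.0583 for chr1:95871175-95886625_R. The count of 692 became 398 with the normexp background and 495 to 757 without 1 array. For TG against WT the count of 53 became 26 with no filter, 35 with probes above background on all 12 arrays, 32 with slide as a term and 22 to 87 without 1 array, and 11 of the 16 named lost their call in at least 1 refit. For TG+MI against TG the count of 86 became 48 with normexp, 41 with the groups compared alone, 7 with slide as a term, 0 within slide 2 and 32 to 114 without 1 array. For TG+MI against WT+MI the count of 140 became 239 with scaling to the median, 3 with no filter, 0 with the groups compared alone, 0 with slide as a term and 0 to 214 without 1 array. With slide as a term the measured differences of chr4:94719930-94825776_F and chr8:122928924-122929556_R in that comparison turned to -0.36 and -0.12. The interaction count of 123 became 40 with normexp, 2 with no filter, 0 with slide as a term and 8 to 198 without 1 array. All 16, 16 and 10 named members of the last 3 tests lost their call in at least 1 refit. The cause of these changes was not tested. In the fit with the replicate number as a block, whose numbers do not pair the samples, the counts were 670, 33, 62, 111 and 87.

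Among nearest-gene correlations, taking same-strand or opposite-strand pairs alone in place of any strand gave 0.60 and 0.17 inside the interval, 0.085 for the opposite strand within 5 kb, 0.13 for it between 5 and 50 kb, and 0.32 and -0.083 beyond 50 kb. Dim members limit the precision: probes detected in part of the arrays have no measured level in the group where they are below background.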
